A study of Mus musculus with 37 samples.

Results

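The miR-23, miR-27 and miR-24 families are encoded in the mouse by a pair of paralogous clusters, and the 5 mature microRNAs described here are mmu-miR-23a-3p, mmu-miR-27a-3p, mmu-miR-23b-3p, mmu-miR-27b-3p and mmu-miR-24-3p, written below without the species prefix. They were chosen by name, as 5 of the 1915 mature microRNAs in the count table, by a rule that uses no measured value. The families themselves were chosen with earlier results of these data known. Small RNA was sequenced from whole blood of male C57BL/6 mice of the learning group, which was trained in the Morris water maze, a test of spatial memory. The 37 libraries came from mice of 12 months (n = 9), 13.5 months (n = 12), 15 months (n = 5) and 16.5 months (n = 11). All groups shared strain, sex, training group and bleeding from the orbital sinus under isoflurane, through a heparinized capillary. The methods describe the animals as wild-type and of the J substrain. The youngest blood was taken before any behavioural work and the later blood after a probe test, so age, training and earlier bleeds cannot be told apart. The design was longitudinal, with mice trained and bled again at successive ages, so libraries of different ages may come from the same animals. The labels do not tie them, and the tests treat the libraries as independent, so the p-values take no account of repeated animals. Home cage animals were not analysed here.

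MicroRNAs guide Argonaute proteins to messenger RNAs, mainly by pairing through the seed, bases 2 to 8 from the 5′ end. Each cluster is transcribed as a single primary RNA from which the precursor hairpins are cut, and each hairpin yields a guide strand, here the 3p arm, and a passenger strand that is mostly degraded. In blood, the Mir23a cluster is known for favouring myeloid over B lymphoid development. The miR-27 pair is known for restraining lipid and adipocyte genes, miR-23 for repressing glutaminase, and miR-24 for repressing cell cycle regulators.

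The chromosome 8 cluster holds Mir23a, Mir27a and Mir24-2 within 404 bases at chr8:84208518-84208921 on the plus strand of GRCm38, the build also named mm10. In GENCODE, its Mir23a and Mir27a hairpins overlap no other gene, while Mir24-2 overlaps the start of the long non-coding gene Gm26532. The chromosome 13 cluster holds Mir23b, Mir27b and Mir24-1 within 792 bases at chr13:63300484-63301275, also on the plus strand. It lies inside the protein coding gene 2010111I01Rik on the same strand, where Mir23b is intronic and the other two overlap an annotated exon, and inside an intron of Fancc on the opposite strand. Mir24-2 and Mir24-1 each have an annotated antisense hairpin, Mir3074-2 and Mir3074-1.

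RefSeq entries on GRCm38.p6 were found for 4 of the 5 mature microRNAs, and these are printed 5′ to 3′ with the seed in capitals, because what the paralogs share decides which counts can be told apart. The passenger strands of miR-24 are added because they differ between the clusters.
miR-23a-3p (chr8:84208563-84208583): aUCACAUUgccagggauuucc
miR-27a-3p (chr8:84208727-84208747): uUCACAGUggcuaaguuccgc
miR-27b-3p (chr13:63300760-63300780): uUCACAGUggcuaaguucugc
miR-24-3p (chr8:84208875-84208896 and chr13:63301251-63301272): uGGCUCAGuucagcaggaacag
miR-24-2-5p (chr8:84208839-84208860): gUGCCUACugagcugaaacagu
miR-24-1-5p (chr13:63301213-63301235): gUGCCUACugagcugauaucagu

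miR-27a-3p and miR-27b-3p share their seed and their first 18 bases, and they differ by C19U, with positions counted from the 5′ end of miR-27a-3p. Reads down to 18 bases were kept, so a read that ends at base 18 matches both. No entry was found for miR-23b-3p, so the bases it shares with miR-23a-3p were not compared. Whether short reads match both miR-23 paralogs was not tested. No other mature mouse microRNA in the sequence table carries the seed of miR-27. The 4 others with the seed of miR-24-3p (miR-5124b, miR-6369, miR-6410 and miR-6413) had 0 reads in these libraries. The mature miR-24-3p is identical in both clusters, and its 2 rows in the count table held the same number in 37 of 37 libraries, so the 3p arm does not show which cluster it came from. The passenger strands do: miR-24-2-5p and miR-24-1-5p share their first 16 bases and differ from base 17 on.

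Summed over all microRNAs, library totals ran from 2619533 to 20268095. These totals hold both miR-486a-5p and miR-486b-5p, whose levels had the same mean, SD and range at every age. The totals therefore appear to count the same miR-486 reads more than once. Only 140292 to 1131713 reads lay outside the erythroid miR-486. The 5 microRNAs together took 212 to 5920 reads. They made up 0.130% to 0.715% of the reads outside miR-486. The library with the fewest member reads was 13.5 month replicate 1, whose TMM factor (0.309) was also the lowest of the 37. Levels below are CPM, counts per 1000000 of the library total (both miR-486 rows included), scaled by TMM, edgeR's library size correction. With 4 libraries of under 200000 reads outside miR-486 left out, 1 at each age, every call given below for miR-23a-3p and miR-24-2-5p in the age fit held. In bulk blood, fewer cells of a type and less RNA per cell cannot be told apart.

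The members differed widely in abundance, and the paralogs were unbalanced in opposite directions. mmu-miR-27b-3p dominated, with 202 ± 45.0 CPM (SD, n = 37) and 76.4% ± 4.32 of the reads of the 5 members. mmu-miR-23a-3p followed with 26.0 ± 7.78 CPM, mmu-miR-24-3p with 20.001 ± 8.97, mmu-miR-23b-3p with 10.4 ± 3.097 and mmu-miR-27a-3p with 6.71 ± 2.399. Each had reads in all 37 libraries, with totals of 69641, 9076, 6925, 3609 and 2334 reads in that order. A microRNA read spans the whole molecule, so these levels need no correction for length, but differences in ligation yield between sequences were not measured.

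The order was compared within libraries as the log2 ratio of reads, with 0.5 added to each count. miR-27b-3p exceeded miR-23a-3p in 37 of 37 libraries, by 3.0 ± 0.47 on the log2 scale (SD), or 8.001-fold. The log2 ratio of miR-23a-3p to miR-24-3p was 0.46 ± 0.60, a mean of less than 1 SD, with miR-23a-3p higher in 30 of 37. Whether this mean differs from 0 was not tested. The place of miR-24-3p depends on how its identical rows are counted, here as 1 row. Summed, they hold 13850 reads, the log2 ratio of miR-23a-3p to miR-24-3p becomes -0.54 ± 0.61, with miR-23a-3p higher in 5 of 37, and miR-27b-3p takes 71.3% ± 4.996 of the member reads. With 1 row, miR-24-3p exceeded miR-23b-3p in 33 of 37 libraries (0.86 ± 0.60), and miR-23b-3p exceeded miR-27a-3p in 34 of 37 (0.64 ± 0.50), both by more than 1 SD.

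**Figure D1:**
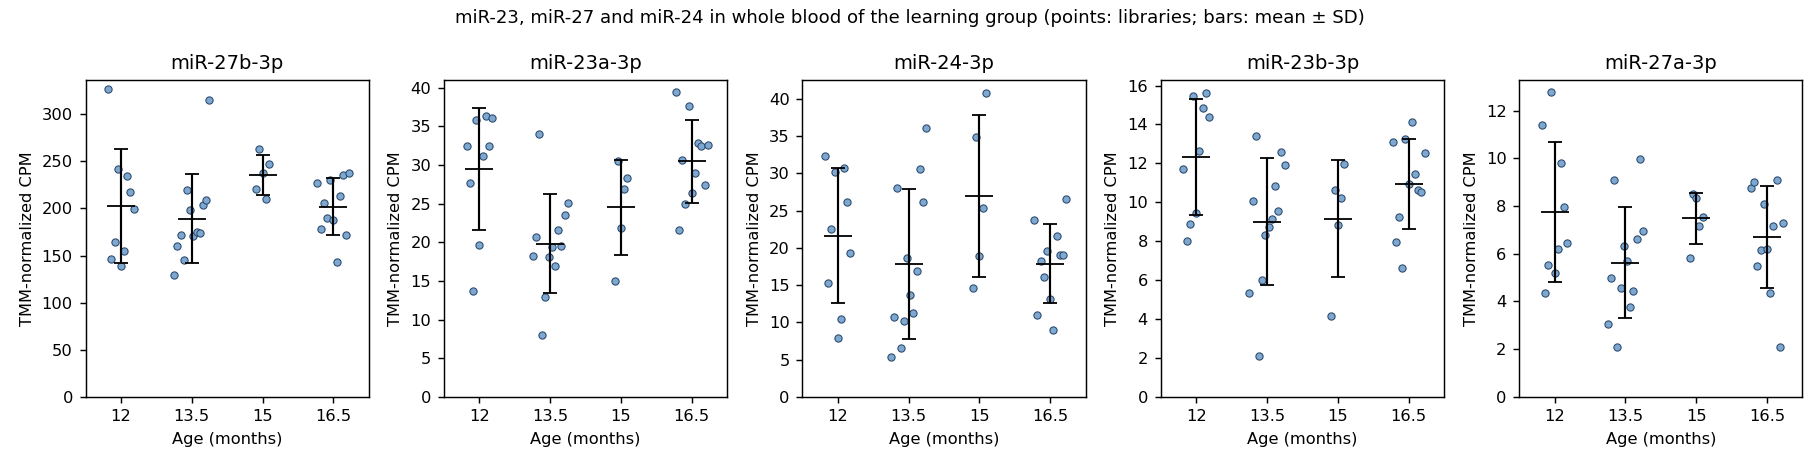
TMM-normalized CPM of each member (vertical axes from 0, each on its own linear scale) against age in months, with 1 point per library and the mean ± SD as bars. The 13.5 month libraries of miR-23a-3p sit lowest, at a mean of 19.8 CPM against 29.5 at 12 months and 30.5 at 16.5 months, while the points of all ages overlap in every panel.

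The paralog ratios show this imbalance directly. miR-23a-3p, from chromosome 8, had 2.495-fold the reads of miR-23b-3p, and the log2 ratio lay between 0.61 and 1.89, above 0 in all 37 libraries. miR-27b-3p, from chromosome 13, had 31.1-fold the reads of miR-27a-3p, and the log2 ratio of miR-27a-3p to miR-27b-3p lay between -6.23 and -4.23, below 0 in all 37. Thus the chromosome 8 member was the more abundant of the miR-23 pair and the chromosome 13 member the more abundant of the miR-27 pair. Neighbours within a hairpin cluster differed as well. miR-27a-3p stood 3.89-fold below miR-23a-3p, its neighbour on chromosome 8, while miR-27b-3p stood 19.96-fold above miR-23b-3p, its neighbour on chromosome 13.

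Of the 5 members, 3 passed the filter, set at over 100 reads in 50% or more of libraries: miR-27b-3p (37 of 37 libraries), miR-23a-3p (32) and miR-24-3p (26). miR-23b-3p passed 100 reads in 14 libraries and miR-27a-3p in 7, so both were tested only in a fit with a filter of more than 1 read. Among the 3 tested members, 1 passed the quasi-likelihood F-test of age (edgeR), beside 58.6% of all 87 microRNAs tested. This was miR-23a-3p (adjusted p = 0.00815). miR-24-3p (adjusted p = 0.333) and miR-27b-3p (adjusted p = 0.399) did not pass. Between single ages, 1 of the 3 was called at 13.5 against 12 months (43.7% of all 87) and 1 at 16.5 against 13.5 months (49.4%). None of the 3 was called at 15 against 12 months (0%), 16.5 against 12 months (19.5%), 15 against 13.5 months (39.1%) or 16.5 against 15 months (3.45%).

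miR-23a-3p ran from 13.7 to 36.3 CPM at 12 months, with a median of 32.4. At 13.5 months it ran from 7.96 to 34.0 CPM, with a median of 19.4. Its 15 month libraries held 15.0, 30.5, 21.9, 26.9 and 28.3 CPM. At 16.5 months it ran from 21.6 to 39.5 CPM, with a median of 30.6. The middle of the 13.5 month group was the lowest of the 4 ages, although its highest library lay inside the ranges of 12 and 16.5 months. It fell by 0.57 on the log2 scale from 12 to 13.5 months (SE 0.18, adjusted p = 0.00844), in a contrast in which 23% of all 87 tested microRNAs were called lower and the median log2 change of all 87 was 0.11. It rose by 0.62 from 13.5 to 16.5 months (SE 0.17, adjusted p = 0.00247), where 21.8% of all tested were called higher. The change from 12 to 16.5 months was 0.05 (SE 0.18, adjusted p = 0.912). Both called contrasts share the 13.5 month libraries.

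The call of miR-23a-3p depended on settings. The age test was lost with the filter of more than 1 read (adjusted p = 0.0707), with no filter (0.252) and with scaling by total reads (0.145), and the contrast of 13.5 with 12 months was lost in the same 3 settings, with 2 RUVs factors (0.188), and in 14 of the 37 fits that left out 1 library. In all 14 the TMM reference had switched to 13.5 month replicate 5, and the log2 change was then between -0.42 and -0.30 (adjusted p 0.0591 to 0.161). With the reference library of the full fit kept, the change lay between -0.67 and -0.51 and the call held in all 36 such fits. The rise from 13.5 to 16.5 months held in every fit with a library left out, and was lost with total scaling (adjusted p = 0.360) and with no filter (0.118).

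Some markers of blood cells moved between the same ages. The 2 myeloid arms (miR-223) ranged in sum from 14.9 to 55.9 CPM at 12 months and from 5.31 to 28.7 at 13.5 months, then from 12.1 to 27.1 at 15 months and from 15.9 to 26.3 at 16.5 months. The 2 arms of miR-142a, found across leukocytes, summed to 2358 to 3437, 933 to 3170, 1997 to 2911 and 2324 to 4130 CPM at these ages. In the same fit, miR-223-3p changed by -1.01 (adjusted p = 0.000958) and miR-142a-5p by -0.54 (adjusted p = 0.00593) from 12 to 13.5 months, and by 0.62 (adjusted p = 0.0237) and 0.58 (adjusted p = 0.00182) from 13.5 to 16.5 months. The scarcer arms were tested with the filter of more than 1 read. There miR-142a-3p had an age call (F-test adjusted p = 0.0356) and miR-223-5p had none (0.892). After subtracting the mean of each age, the Pearson r of miR-23a-3p over the 37 libraries was 0.70 with miR-223-3p, 0.33 with miR-142a-5p, 0.67 with the erythroid miR-451a and -0.51 with the erythroid miR-486a-5p, given as a description. The part of these cells in the change of miR-23a-3p was not tested.

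The other marker lists were described by the range of their summed level. The 5 erythroid microRNAs (miR-451a, miR-486 and miR-144) summed to 458839 to 3110387 CPM. This sum adds the identical levels of miR-486a-5p and miR-486b-5p. TMM factors, as low as 0.309, can take such a sum past 1000000. miR-451a fell by 1.44 from 12 to 13.5 months (adjusted p = 0.00295) while miR-486a-5p changed by 0.31 (adjusted p = 0.349). From 13.5 to 16.5 months, miR-451a changed by 0.71 (adjusted p = 0.111) and miR-486a-5p by 0.01 (adjusted p = 0.970). The erythroid miR-144-5p moved between the same ages as miR-23a-3p: it fell by 1.65 from 12 to 13.5 months (adjusted p = 5.82e-05) and rose by 1.72 from 13.5 to 16.5 months (adjusted p = 7.89e-06). The part of these cells in the change of miR-23a-3p was likewise not tested. The 2 lymphocyte arms of miR-150 summed to 32.2 to 696 CPM, with no age call for miR-150-5p (adjusted p = 0.913). The 2 arms of miR-126a, of endothelium and platelets, summed to 0 to 5.39 CPM, and the 2 muscle microRNAs to 0.281 to 24.5 CPM, all of it miR-133a-3p, since miR-1a-3p was at 0 in all libraries. The liver microRNA miR-122-5p stayed at or below 0.370 CPM and the 2 brain microRNAs at or below 1.52 CPM in all libraries, so the defining erythroid and leukocyte microRNAs of whole blood were present and those of liver and brain were near 0.

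miR-23b-3p, the paralog of miR-23a-3p, ran from 8.02 to 15.6 CPM at 12 months (median 12.6) and from 2.08 to 13.4 at 13.5 months (median 9.37). Its 15 month libraries held 4.16, 10.6, 8.84, 10.2 and 12.0 CPM, and at 16.5 months it ran from 6.64 to 14.1 (median 10.95). The ranges overlapped at all ages. With the filter of more than 1 read, its change from 12 to 13.5 months was -0.31 (SE 0.22, adjusted p = 0.321), beside -0.45 (SE 0.19, adjusted p = 0.0797) for miR-23a-3p in that fit. The age test gave adjusted p = 0.542, in a fit that called 32.2% of 323 microRNAs.

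Whether the miR-23 paralogs changed differently was tested on their ratio, with two-sided permutation tests of the difference in mean log2 ratio, by full enumeration unless both groups held 10 or more libraries. The log2 ratio of miR-23a-3p to miR-23b-3p averaged 1.23 ± 0.32 (SD) in the 12 month libraries and 1.18 ± 0.31 in those of 13.5 months. It averaged 1.45 ± 0.22 at 15 months and 1.48 ± 0.23 at 16.5 months. The difference of 0.30 between 16.5 and 13.5 months had p = 0.0164 in the permutation test and adjusted p = 0.157 over the 30 ratio comparisons made, and the change from 12 to 13.5 months was -0.05 (exact permutation adjusted p = 0.775). The late difference depended on libraries with few reads: with at least 10 reads of both, which left out 2 of the 13.5 month libraries, it was 0.42 (permutation adjusted p = 0.00343), and 15 against 13.5 months then gave 0.39 (exact permutation adjusted p = 0.00892). The libraries left out, replicates 1 and 4 with 7 and 6 reads of miR-23b-3p, held the 2 highest ratios of that age (1.71 and 1.85), so leaving them out widens the difference by construction. Leaving out 13.5 month replicate 1 alone gave 0.35 (permutation adjusted p = 0.0375) and leaving out replicate 4 alone gave 0.36 (adjusted p = 0.0304).

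miR-27b-3p ran from 138 to 327 CPM at 12 months (median 199) and from 129 to 315 at 13.5 months (median 174). Its 15 month libraries held 221, 263, 238, 210 and 247 CPM, and at 16.5 months it ran from 143 to 238 (median 206). A single library stood well above the rest at 12 and at 13.5 months, and the ranges of all ages overlapped. Its 6 contrasts lay between -0.22 and 0.32 on the log2 scale, with 0 calls, and the lowest adjusted p was 0.137, for 15 against 13.5 months. Removing 1 RUVs factor, an estimate of hidden variation among libraries of one age, and testing with DESeq2 gave miR-27b-3p an age call (adjusted p = 0.0256). That fit called 72 of all 87 microRNAs, against 51 in the main fit.

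miR-27a-3p ran from 4.37 to 12.8 CPM at 12 months (median 6.44), and from 2.08 to 9.98 at 13.5 months (median 5.33). Its 15 month libraries held 5.82, 8.50, 8.36, 7.18 and 7.54 CPM, and at 16.5 months it ran from 2.11 to 9.10 (median 7.16). The lowest of these levels rest on few reads, between 4 and 166 per library. None of its 6 contrasts passed in the fit with the filter of more than 1 read (adjusted p between 0.347 and 0.979), nor did any of miR-23b-3p. That fit called 21.7% of 323 at 13.5 against 12 months, 26.6% at 16.5 against 13.5 months, 14.2% at 16.5 against 12 months, 9.91% at 15 against 13.5 months, and 0.31% at 15 against 12 and at 16.5 against 15 months. The log2 ratio of miR-27a-3p to miR-27b-3p averaged -4.73 ± 0.23 (SD) in the 12 month libraries and -5.13 ± 0.50 in those of 13.5 months. It averaged -4.97 ± 0.15 at 15 months and -4.97 ± 0.48 at 16.5 months. Its difference of -0.40 between 13.5 and 12 months had exact permutation p = 0.0404 and adjusted p = 0.157 over the 30 comparisons, and the 5 other differences had adjusted p of 0.157 or more.

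**Figure D2:**
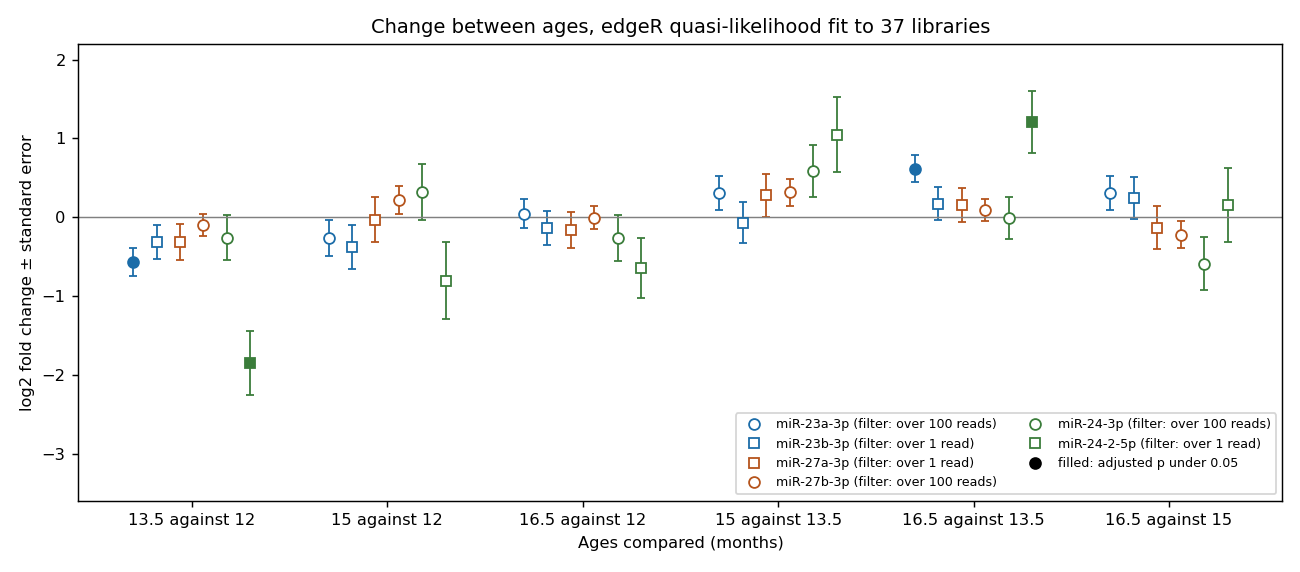
Log2 fold change ± standard error (vertical axis) for each pair of ages in months, from edgeR fits with a filter of more than 100 reads (circles) or of more than 1 read (squares). Filled symbols, with adjusted p under 0.05, are miR-23a-3p and miR-24-2-5p at 13.5 against 12 months (-0.57 and -1.85) and at 16.5 against 13.5 months (0.62 and 1.21).

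miR-24-3p ran from 7.85 to 32.3 CPM at 12 months (median 22.6) and from 5.31 to 36.1 at 13.5 months (median 15.3). Its 15 month libraries held 14.6, 34.8, 19.0, 25.3 and 40.8 CPM, and at 16.5 months it ran from 8.99 to 26.6 (median 19.0). It was the most variable member relative to its level, and the ages overlapped. Its 6 contrasts lay between -0.59 and 0.58 with 0 calls, and the lowest adjusted p was 0.169, for 15 against 13.5 months. With RUVs factors miR-24-3p passed the age test, with 1 factor (adjusted p = 0.04497), with 2 factors (0.0468) and in DESeq2 with 1 factor (0.00730). These fits called 71, 69 and 72 of all 87 microRNAs, against 51 in the main fit.

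Set against miR-23a-3p within libraries, miR-24-3p did differ between ages. The log2 ratio of miR-24-3p to miR-23a-3p was -0.20, -0.09, -0.04, 0.19 and 0.53 in the 15 month libraries in ascending order, and ran from -1.68 to -0.30 at 16.5 months, with a median of -0.74. The groups did not overlap. The mean was 0.89 lower at 16.5 months than at 15 months (exact permutation p = 0.000229, adjusted p = 0.00687 over 30 comparisons), and this was the only one of the 30 past 0.05 with all libraries. At 12 months the ratio ran from -1.58 to 0.71 and at 13.5 months from -1.71 to 0.64, overlapping both later ages. Left out in turn, each single library of these ages left a difference between -0.96 and -0.77. Other comparisons passed once single libraries were left out. In each comparison given here, only 1 library had this effect. It held the highest or the lowest ratio of its age, so leaving it out widened the difference by construction. The difference in miR-24-3p to miR-23a-3p between 16.5 and 13.5 months, -0.51 (permutation adjusted p = 0.157), became -0.64 without 13.5 month replicate 1 (adjusted p = 0.0178). That library held 7 reads of miR-24-3p and the lowest ratio of its age, -1.71. Requiring at least 10 reads of both left out the same library only, so the -0.64 (permutation adjusted p = 0.00892) is not a separate result. The log2 ratio of miR-27b-3p to miR-23b-3p was 0.73 higher at 15 than at 12 months (exact permutation adjusted p = 0.0749), and 0.83 higher without 12 month replicate 1 (adjusted p = 0.0117). All libraries of these ages held at least 10 reads of both, and in the 30 comparisons restricted in that way the same 0.73 had exact permutation adjusted p = 0.03. At 16.5 against 15 months its difference was -0.54 (exact permutation adjusted p = 0.157), and -0.60 without 16.5 month replicate 4 (adjusted p = 0.05).

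**Figure D3:**
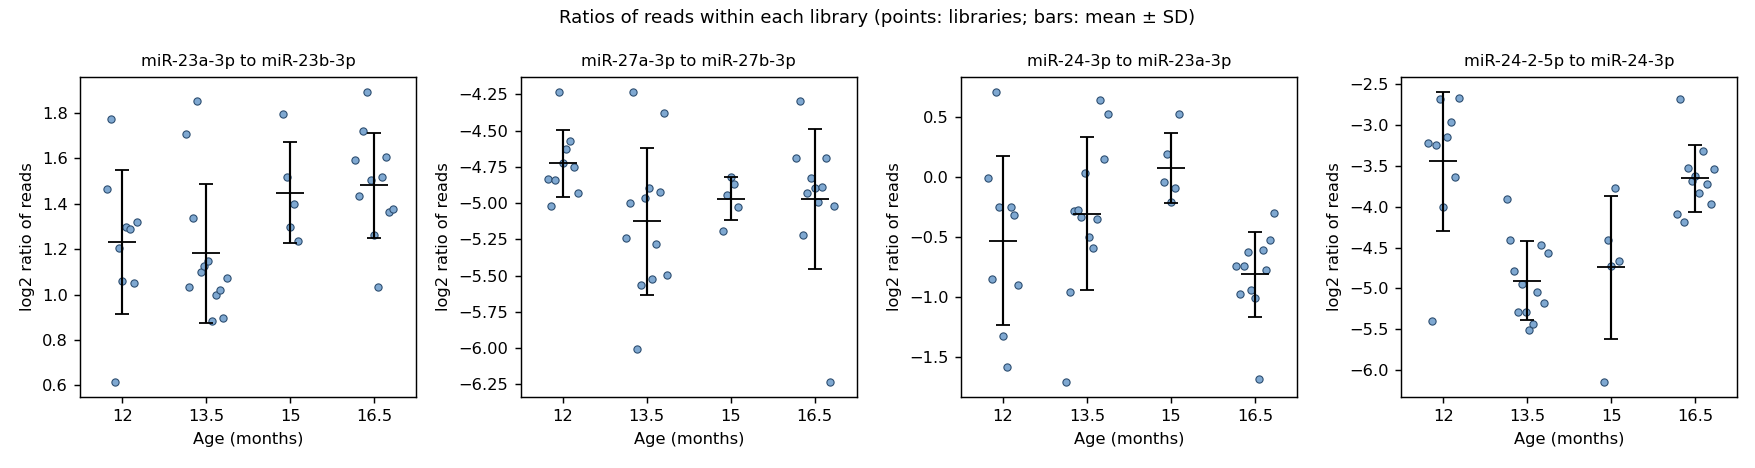
Log2 ratios of reads within each library (vertical axes, not starting at 0) against age in months, with 1 point per library and the mean ± SD as bars. The ratio of miR-23a-3p to miR-23b-3p stays above 0 and that of miR-27a-3p to miR-27b-3p below 0 in all libraries, while miR-24-3p to miR-23a-3p at 16.5 months lies wholly below 15 months.

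The 6 passenger strands were nearly absent, with a single exception. miR-23a-5p and miR-23b-5p had 3 reads each over all 37 libraries, miR-27a-5p had 9 and miR-27b-5p had 36, against 2334 to 69641 for their guide strands. miR-24-2-5p, from chromosome 8, had 456 reads and miR-24-1-5p, from chromosome 13, had 12. The chromosome 8 strand thus made up 97.4% of the reads of the pair (exact Clopper-Pearson 95% interval 95.6% to 98.7%), and between 95.3% and 98.7% at the single ages. Such intervals cover counting error only, and a passenger read counts strands that escaped degradation, not transcripts.

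miR-24-2-5p changed with age (adjusted p = 0.00500 in the fit of 323 microRNAs with more than 1 read). It ran from 0.243 to 4.64 CPM at 12 months, with a median of 2.22. At 13.5 months it ran from 0 to 1.47 CPM, with a median of 0.451 and 2 of 12 libraries at 0 reads. Its 15 month libraries held 0, 1.59, 0.643, 1.84 and 1.55 CPM. At 16.5 months it ran from 0.514 to 2.24 CPM, with a median of 1.37. The 13.5 month libraries were the lowest as a group and overlapped the others. It fell by 1.85 on the log2 scale from 12 to 13.5 months (SE 0.41, adjusted p = 0.000950), where 11.8% of the 323 were called lower. It rose by 1.21 from 13.5 to 16.5 months (SE 0.39, adjusted p = 0.0212), where 11.8% were called higher.

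These counts were small, between 0 and 44 reads per library. A count of 0 allows up to 3 reads, and the library at 15 months and those at 13.5 months without a read were among the shallowest outside miR-486. The fall kept its call in all 48 alternative fits, whereas the rise lost it with total scaling (adjusted p = 0.142) and without 16.5 month replicate 8 (adjusted p = 0.0535). Per 1000 reads of miR-24-3p, there were 109 reads of miR-24-2-5p in the pooled 12 month libraries and 31.2 in those of 13.5 months, then 52.0 at 15 months and 77.5 at 16.5 months. The pooled 15 month value rests largely on replicate 4, which held 39 of the 72 reads. Per library, the log2 ratio of miR-24-2-5p to miR-24-3p averaged -3.44 ± 0.85 (SD) at 12 months and -4.90 ± 0.49 at 13.5 months. It averaged -4.74 ± 0.87 at 15 months, 0.16 above 13.5 months, and -3.65 ± 0.41 at 16.5 months. This share was computed after the fall had been seen and is given as a description. miR-24-3p itself, the guide strand of the same hairpin and of its chromosome 13 paralog, changed by -0.11 (SE 0.28, adjusted p = 0.839) from 12 to 13.5 months in that fit.

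The antisense hairpins over Mir24 also had reads, and are named here after their values were seen. miR-3074-5p, which is annotated over both loci and is complementary to miR-24-3p over 20 bases, had 4901 reads, against 6925 of miR-24-3p.
miR-3074-5p (chr8:84208873-84208894 and chr13:63301249-63301270, minus strand): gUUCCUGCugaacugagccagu
It had 24.8% to 246% of the reads of miR-24-3p in single libraries, with a median of 79.1%, and exceeded miR-24-3p in 14 of 37. The counts of the opposite strands were equal in 0 of 37 libraries. Whether the counting used strand is not given in the sources used here. Of its other arm, 1303 of 1304 reads (99.92%, exact 95% interval 99.57% to 100%) were of miR-3074-1-3p, the form named for the chromosome 13 hairpin. Of the arms named for a single locus, the sense reads were thus mostly of the chromosome 8 form and the antisense reads mostly of the chromosome 13 form.

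The members varied together across libraries. On log2(CPM + 1) values less the mean of their age, all 10 pairs had a positive Pearson r over the 37 libraries, between 0.41 and 0.85, while the median r over all 3741 pairs of the 87 tested microRNAs was 0.006 (quartiles -0.39 and 0.41). Such r was not confined to members. The 5 members had r of 0.61 to 0.82 with miR-223-3p, 0.66 to 0.88 with miR-451a and 0.33 to 0.58 with miR-142a-5p. It was negative with miR-486a-5p (-0.63 to -0.51) and miR-150-5p (-0.70 to -0.09). The closest pair was miR-23a-3p and miR-23b-3p, paralogs on different chromosomes (r = 0.85, Spearman's rho 0.81, each with permutation p = 1e-05, the smallest that 100000 resamples give, and adjusted p = 3.33e-05 over the 10 pairs). Within single ages their r lay between 0.72 and 0.96, and without the 2 libraries farthest from the median it was 0.81. Next came miR-24-3p with miR-27b-3p (r = 0.77, rho 0.72, permutation p = 1e-05 for both) and miR-27a-3p with miR-27b-3p (r = 0.68, rho 0.75, permutation p = 1e-05 and 2e-05). Without the 2 farthest libraries these were 0.71 and 0.70, and within single ages they lay between 0.61 and 0.85 and between 0.58 and 0.90.

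Between miR-23 and miR-27, neighbours in one cluster had a lower r than the paralogs. miR-23a-3p and miR-27a-3p on chromosome 8 had r = 0.59 (rho 0.60, permutation p = 0.00015 and 0.00018), and without the 2 farthest libraries 0.50. miR-23b-3p and miR-27b-3p on chromosome 13 had r = 0.41 (rho 0.39, permutation p = 0.0174 and 0.0198), and without the 2 farthest libraries 0.39. miR-24-3p, which cannot be assigned to a cluster, had r = 0.77 with miR-27b-3p and 0.65 with miR-27a-3p. The differences between these correlations were not tested. The part in them of reads that match both paralogs of a pair was not tested either. All points share their libraries and size factors, and the low counts of miR-27a-3p and miR-23b-3p add counting noise.

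**Figure D4:**
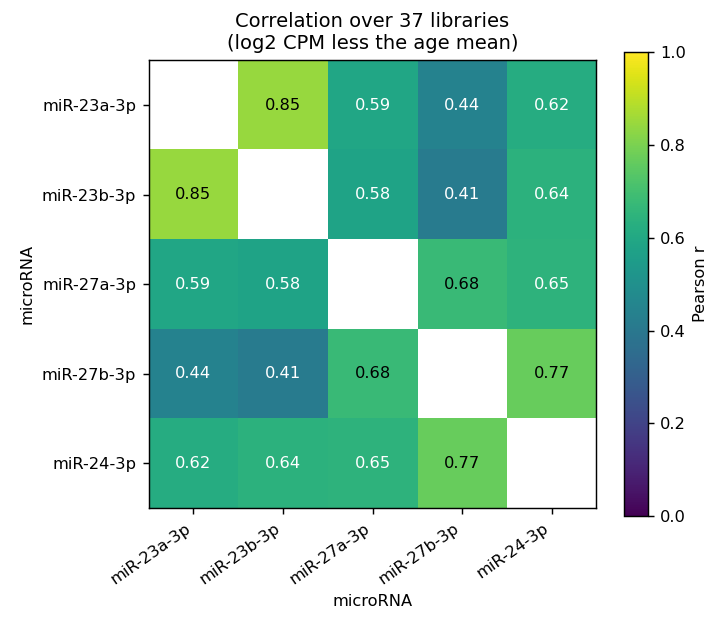
Pearson r between members over 37 libraries (colour scale from 0 to 1, value printed in each cell) after the mean of each age was subtracted from log2(CPM + 1). The highest cells are miR-23a-3p with miR-23b-3p (0.85) and miR-24-3p with miR-27b-3p (0.77), and the lowest is miR-23b-3p with miR-27b-3p (0.41).

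Among the 86 other tested microRNAs, those most like each tested member over the 37 libraries, by the same r, are given as a description. For miR-23a-3p they were miR-16-5p (0.75), miR-146a-5p (0.71), known for damping NF-kB signalling, and miR-29a-3p (0.70), known for repressing collagens. For miR-24-3p they were miR-186-5p (0.90), the erythroid miR-451a (0.88) and miR-29a-3p (0.87). For miR-27b-3p they were miR-21a-5p (0.86), miR-24-3p (0.77) and miR-194-5p (0.75). The median r with all 86 was 0.13 for miR-23a-3p, 0.15 for miR-24-3p and 0.17 for miR-27b-3p. Against the lymphocyte miR-150-5p, r was -0.70 for miR-24-3p, -0.50 for miR-27b-3p and -0.09 for miR-23a-3p.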

How the data were processed

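Small RNA libraries were made from whole blood with the TruSeq small RNA kit and sequenced on an Illumina HiSeq2000. The authors trimmed adapters with cutadapt, checked reads with FastQC 0.11.5, discarded reads under 18 bases, and ran miRDeep2 (mm10 genome, miRBase precursors, perfect matches only) to count the rest. The deposited counts are whole reads, not normalized, with 2241 rows for 1915 mature microRNAs. The authors also deposited a normalized signal table of 337 microRNAs, in which 100% of values equal the first row of a microRNA in the count table times 1 factor per library (tolerance 0.0001). First rows were therefore used, and its factors served as an alternative. The methods instead describe counts of microRNAs from several loci as summed, which doubles the reads of miR-24-3p, whose rows are identical, and changes no other member. In all, 0 columns of per-sample values were left out.

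Libraries were grouped by the labelled age. Counts were tested with edgeR 4.0.16 in R 4.3.3 (TMM, quasi-likelihood F-test, 1 fit to 37 libraries, Benjamini-Hochberg adjustment over all tested, threshold 0.05), keeping microRNAs above 100 reads in 50% or more of libraries (87 microRNAs), or above 1 read (323) for scarcer ones. CPM uses TMM-scaled library sizes. The standard error was obtained by dividing a log2 fold change by the root of its F. Ratios used a pseudocount of 0.5 and permutation tests (full enumeration, or 100000 resamples where both groups had 10 or more). The study used DESeq2 with RUVs factors of a number its text does not give, so no factor was in the main fit, and DESeq2 1.42.0 and 1 or 2 RUVs factors, computed from the published formula, were alternatives, as were scaling, filter, summed rows, replicate block and left-out libraries. The share of miR-24-2-5p, the low depth libraries left out and the kept TMM reference were added after seeing the data. Where nothing says that libraries came from separate animals, p-values measure only the spread between these libraries. No 2 libraries of an age held identical counts.

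The microRNAs named are the 5 members, their 6 passenger strands, the 3 most correlated for each tested member, those with the same seed and the marker lists for erythroid, myeloid, leukocyte, lymphocyte, endothelial or platelet, liver, muscle and brain cells. The rule selects members by name, but the choice of these families, like that of the lists, was made with earlier results of these data known. Scripts were tested on simulated data. Precision is limited by 140292 to 1131713 reads outside miR-486 per library. The biological coefficient of variation was 0.405. Intervals do not separate PCR copies from molecules.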

Additional observations from a re-analysis of the deposited data

Results flagged for a closer look

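Dixon's test on the highest and lowest library was applied to 22 groups of 4 to 10 libraries, and 2 passed its limit, where about 5% of groups do so with no cause. Both concern the log2 ratio of miR-27b-3p to miR-23b-3p. At 12 months replicate 1 stood at 4.796, above the next library at 4.18. At 15 months replicate 1 stood at 5.66, above the next library at 4.74, and that library held 10 reads of miR-23b-3p.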

How the results depend on the processing

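Over 85 results and 4341 alternative values, 4240 stayed on their side of the threshold (counts within 1.5 times) and 0 called values reversed. Among these 4240, 162 uncalled values changed sign. The number of tested members past 0.05 in the age test (1) became 2 with 1 RUVs factor, 2 with 2 factors and 3 in DESeq2 with 1 factor. Of all 87 microRNAs these fits called 71, 69 and 72, against 51 in the main fit. The number of members became 0 with total scaling, which called 32 of all 87. It was also 0 with the filter of more than 1 read (104 of 323 called) and with no filter (75 of 960). At 13.5 against 12 months (1) it was 0 with 2 RUVs factors, with total scaling, with either lower filter, and with 13.5 month replicate 5 as TMM reference, and between 0 and 1 with 1 library left out. At 15 against 12 months (0) it was 1, 2 and 2 with 1 RUVs factor, with 2 and in DESeq2 with 1, and at 15 against 13.5 months (0) 1, 1 and 2, with a range of 0 to 1 with a library left out. That 1 was miR-27b-3p without 13.5 month replicate 12 and with the TMM reference of the full fit also kept, a setting chosen after seeing the data (adjusted p = 0.0304). With the reference left free the same fit gave 0.121. At 16.5 against 13.5 months (1) it was 0 with total scaling and with no filter. At 16.5 against 15 months (0) it was 1 with 2 RUVs factors and 1 in DESeq2 with 1 factor. The shares of all 87 that the fits with RUVs factors called in single contrasts are not given here. With total scaling, the median log2 change of all 87 moved from 0.05 to -0.66 at 15 against 12 months and miR-27b-3p from 0.22 to -0.51. Apart from the switch of TMM reference, the cause of these changes was not tested.

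The log2 ratio of miR-23a-3p to miR-23b-3p passed in libraries with 10 or more reads of each, by 0.39 (15 against 13.5 months) and 0.42 (16.5 against 13.5 months). For the latter, leaving out 1 library gave 0.26 to 0.36.

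Whether equal replicate numbers mark the same animal could not be decided. Deviations of same-numbered libraries of different ages had a mean r of -0.035 over 44 pairs, with 20 above 0.1. Single pairs ran from -0.863 to 0.825, too wide a spread for the mean to settle it. With the replicate block, 1 member passed at 15 against 13.5 months, miR-24-3p with a log2 change of 1.01 (adjusted p = 0.0317), and the fall of miR-24-3p against miR-23a-3p from 15 to 16.5 months, -0.88 over 5 pairs, had exact permutation adjusted p = 0.312, where 5 pairs cannot give a p below 0.0625. The block changed no other call of the members or of their 5 planned ratios.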
